A study of Rattus norvegicus with 12 samples.

Results

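The 10 genes described here encode chaperones and folding enzymes of the endoplasmic reticulum (ER) and the transcription factors of its stress response: Sdf2l1, Manf, Hspa5, Hsp90b1, Pdia4, Dnajb9, Xbp1, Ddit3, Atf4 and Calr. They were taken as every probe that carries one of these symbols in the array's annotation, which gave 1 probe per gene and 10 of the 22523 probes, or 10 of 13337 named genes. The genes were selected on measured values of these arrays, the lower pituitary levels of Sdf2l1 and Manf with TCDD among them, so values of that contrast are a description and support nothing. Transcripts had been measured in male Wistar rat fetuses on gestational day 20, on 12 Illumina RatRef-12 arrays in 4 groups of 3: pituitary of fetuses whose dams received TCDD, control pituitary, hypothalamus of fetuses whose dams received TCDD, and control hypothalamus. TCDD (2,3,7,8-tetrachlorodibenzo-p-dioxin, a ligand of the aryl hydrocarbon receptor) was given to the dam by mouth in corn oil on gestational day 15, at 1 µg/kg per the series text, whereas the labels state the number with mg/kg as its unit. What the control dams received, and whether the 3 arrays of a group stand for different litters, is not in the labels, and the p-values below reflect only how far these arrays differ, which may be technical variation. The study's stated question was which genes change alongside a loss of gonadotropin β-subunit transcripts in the exposed fetal pituitary.

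Secreted and membrane proteins fold in the ER, where BiP (Hspa5) and its co-chaperones bind unfolded chains, GRP94 (Hsp90b1) and calreticulin (Calr) assist particular clients, and disulfide isomerases such as ERp72 (Pdia4) form and reshuffle disulfide bonds. When unfolded chains pile up, the sensors IRE1, PERK and ATF6 start the unfolded protein response: IRE1 splices the Xbp1 mRNA, PERK favours translation of Atf4 and with it transcription of Ddit3 (CHOP), and cleaved ATF6 drives chaperone genes. The response element best known in chaperone promoters, ERSE, pairs a CCAAT box bound by NF-Y with a CCACG box bound by ATF6 or XBP1. Anterior pituitary cells secrete glycoprotein and peptide hormones in bulk, and a high content of ER proteins is a textbook feature of such cells.

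The response element itself can be read in the promoters. The 250 bases before a RefSeq gene start (rat build GRCr8) were available for 9 of the 10 genes, all but Manf. For Dnajb9 the start used was an internal one: its window, chr6:67002052-67002301, lies within the gene span, chr6:66997842-67007371. The full ERSE, spelled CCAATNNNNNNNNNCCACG and searched on both strands, was found in 4 of the 9: Hspa5, Hsp90b1, Xbp1 and Calr. Over all 33469 promoters of the same length, 22 held it, or 0.0657%. The element was already known from chaperone promoters, so its matches in these 4 genes are a description and no enrichment is read from them. The 5 matches are shown because they are the sequence these 4 genes have in common, each with 10 bases on either side, 5′ to 3′ on the gene's strand, with the CCAAT and CCACG boxes (ATTGG and CGTGG where the element runs on the opposite strand) in capitals.
Hspa5, chr3:38452963-38453001, + strand: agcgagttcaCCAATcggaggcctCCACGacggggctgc
Hsp90b1 distal, chr7:23012441-23012479, - strand: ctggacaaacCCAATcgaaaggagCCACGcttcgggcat
Hsp90b1 proximal, chr7:23012337-23012375, - strand: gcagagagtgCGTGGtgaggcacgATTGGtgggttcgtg
Xbp1, chr14:84604548-84604586, + strand: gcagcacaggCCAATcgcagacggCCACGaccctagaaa
Calr, chr19:40213125-40213163, + strand: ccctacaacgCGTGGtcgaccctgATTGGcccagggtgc
The match in Hspa5 ended 25 bases before the gene start and that in Xbp1 47 bases before it. Hsp90b1 held a distal match ending 158 bases before the start and a proximal one, on the opposite strand, ending 54 bases before it. The match in Calr, also on the opposite strand, ended 214 bases before the start.

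Sdf2l1 (chr11:97376878-97379120), the gene with the widest fold of the 10 in the exposed pituitary, held no full ERSE in its 250 bases. Its promoter is shown with CCAAT and CCACG boxes of either strand in capitals.
Sdf2l1 promoter, chr11:97376628-97376877, + strand: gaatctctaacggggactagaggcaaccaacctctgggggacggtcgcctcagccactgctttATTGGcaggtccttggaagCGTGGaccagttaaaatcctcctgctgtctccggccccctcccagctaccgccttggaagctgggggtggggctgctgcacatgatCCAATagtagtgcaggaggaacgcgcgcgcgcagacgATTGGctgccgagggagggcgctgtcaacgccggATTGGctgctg
It held 4 CCAAT boxes and 1 CCACG box, and no pair of them had the order, strand and spacing of ERSE. The promoter of Hspa5, in which the element is well known, is shown for comparison with only the boxes of its full ERSE in capitals.
Hspa5 promoter, chr3:38452766-38453015, + strand: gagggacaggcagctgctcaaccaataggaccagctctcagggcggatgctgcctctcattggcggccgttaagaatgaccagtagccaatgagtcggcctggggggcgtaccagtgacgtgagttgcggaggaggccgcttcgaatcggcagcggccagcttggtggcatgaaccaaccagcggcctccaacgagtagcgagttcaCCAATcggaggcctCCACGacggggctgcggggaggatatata
Hspa5 held 4 CCAAT boxes, of which 1 lay within its full ERSE. ERSE was searched in the exact spelling given above only, and near matches were not looked for in any promoter. Single boxes are short and common: CCAAT was found in 8 of the 9 promoters and in 34% of all promoters, and CCACG in 8 of the 9 and in 27.2% of all. The boxes of a full ERSE are counted among them. Pdia4 held 3 CCAAT boxes and no CCACG box, and Atf4 held 1 CCACG box and no CCAAT box. None of the 9 held ERSE-II (ATTGGNCCACG, in 0.0418% of all promoters) or the element UPRE in the spelling TGACGTGG (0.52%). UPRE was searched in that spelling only, and the Hspa5 promoter shown above holds TGACGTGA. None of the 9 held the C/EBP-ATF element of CHOP and ATF4 targets (TGATGNAAT, 0.944%) or the core of the aryl hydrocarbon receptor's element (TNGCGTG, 4.09%). No match says only that these letters are not in this window.

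**Figure D1:**
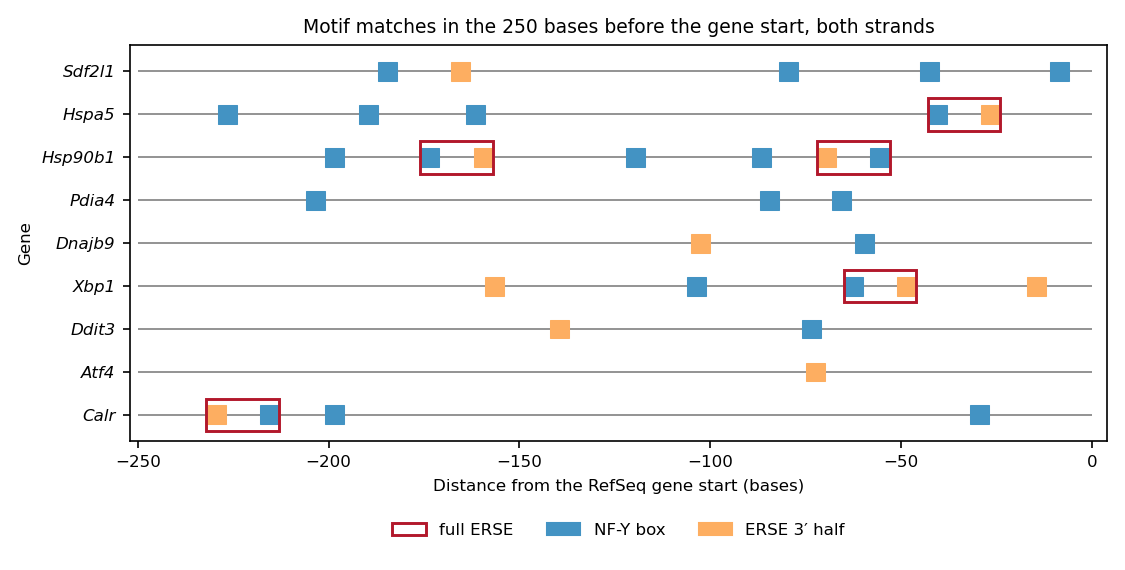
Matches of the full ERSE (red boxes), the CCAAT box bound by NF-Y (blue) and the CCACG box, the 3′ part of ERSE (orange), on either strand of the 250 bases before the RefSeq gene start, by distance from the start in bases, for the 9 genes with a promoter sequence. Manf had no promoter sequence, and the start used for Dnajb9 lies inside its gene span. Full elements lie in Hspa5, Hsp90b1, Xbp1 and Calr, and Sdf2l1 holds 4 CCAAT boxes and 1 CCACG box without a full element.

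All 10 probes were above background on all 12 arrays, with detection p-values of at most 0.00485, so all 10 entered the test. Levels are given as background-corrected, quantile-normalized log2 signal, and a level of one probe says nothing about the level of another. Per array the median raw signal lay between 92.5 and 120.8 intensity units, and 47.4% to 54.5% of all probes were detected. Pituitary TCDD replicate 5 stood apart, with 292 probes over 1 log2 unit above the mean of the other 5 pituitary arrays, against 10 to 86 such probes on the other 11 arrays. Neuron markers stood apart on it too: the summed raw signal of 11 of them was 37783.8 intensity units on this array, 9509.1 and 11146.7 on the other TCDD pituitary arrays, and 10594.1 to 14520.2 on control pituitary arrays. Among them, the neuronal genes Stmn2, Tubb3, Slc17a6, Nefm and Nefl had SDs of 1.39 to 1.90 log2 units over the TCDD pituitary arrays. The rest of the list (Syt1, Rbfox3, Celf4, Gad1, Snap25 and Gad2) had SDs of 0.02 to 0.46 there, and Gad2 was detected on no pituitary array. The part of the neuron signal of replicate 5 in the pituitary results was not tested. Values of Sdf2l1 and Manf without that array are given with their calls. The tissue labels fitted most of their markers. On control arrays 10 of 10 tested anterior pituitary markers passed as higher in pituitary, where 33.7% of all probes did. Of 13 tested hypothalamic markers 11 passed as lower, where 35.9% of all probes did. The anterior pituitary marker Cga was not tested, being detected on 2 of 3 control and 0 of 3 TCDD pituitary arrays. Pitx1, a pituitary transcription factor, averaged 12.61 ± 0.16 in TCDD and 12.71 ± 0.13 in control pituitary (SD, n = 3 each). It was detected on no hypothalamic array. Oxt, the oxytocin gene, averaged 9.83 ± 0.15 in TCDD and 9.66 ± 0.32 in control hypothalamus and was detected on no pituitary array. Other markers separated the tissues less. In control pituitary and control hypothalamus, Npy averaged 10.70 and 10.66, and Cartpt 8.42 and 7.93. Lhb was detected on all 3 arrays of each hypothalamic group.

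In the pituitary, Sdf2l1 and Manf were lower after TCDD, and the other 8 genes had log2 folds between −0.18 and −0.01. Sdf2l1 encodes a resident ER protein that works with the BiP co-chaperone ERdj3 (Dnajb11). Its level was 7.03, 7.27 and 6.94 on the TCDD arrays (replicates 1, 2 and 5, an order kept below), against 7.80, 7.73 and 7.73 on the control arrays (replicates 1, 2 and 3). The control arrays lay close together, and the highest TCDD array stayed 0.46 log2 units below the lowest control array. The means were 7.08 ± 0.17 with TCDD and 7.75 ± 0.04 in controls (SD, n = 3 each), a log2 fold of −0.67 ± 0.11 (SE), or 1.60-fold lower. In raw intensity units, before any correction, Sdf2l1 read 199.4, 252 and 205.6 with TCDD and 299.6, 283.9 and 330.5 in controls, so the groups were apart there too. In bulk tissue a smaller share of cells of a type and less RNA per cell cannot be told apart.

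Manf (chr8:116427053-116430259) encodes an ER-resident protein that binds BiP and can be secreted as a neurotrophic factor. It stood at 10.93, 11.14 and 10.94 on the TCDD arrays, against 11.57, 11.52 and 11.50 on the control arrays. Again no TCDD array reached the control range, with a gap of 0.36. The means of 11.01 ± 0.12 with TCDD and 11.53 ± 0.04 in controls (SD, n = 3 each) gave a log2 fold of −0.53 ± 0.09 (SE), or 1.44-fold lower. For both genes, TCDD replicate 2 was the TCDD array nearest to the controls.

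**Figure D2:**
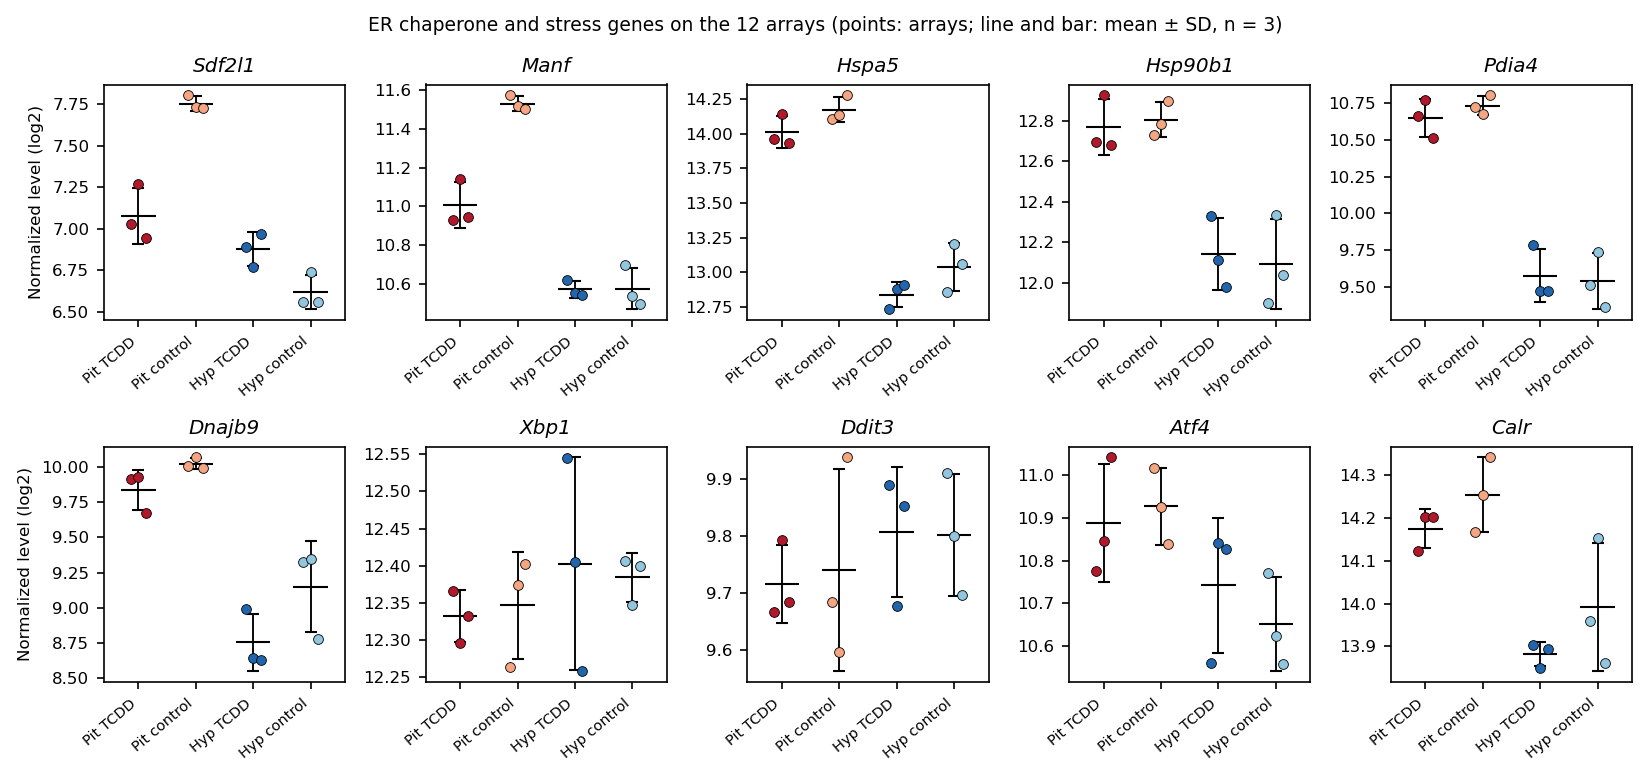
Normalized log2 level of each of the 10 genes on each array, by group (Pit, pituitary; Hyp, hypothalamus), with the mean and SD of 3 arrays; the vertical scale differs between panels. Pituitary TCDD arrays lie below all pituitary control arrays for Sdf2l1, Manf and Dnajb9, and 6 genes, from Hspa5 to Dnajb9 with Sdf2l1 and Manf, have pituitary controls well above hypothalamic controls.

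Among the chaperones proper, Hspa5 (BiP) read 13.96, 14.14 and 13.93 in TCDD pituitaries, against 14.11, 14.13 and 14.28 in control pituitaries. The groups overlapped, and the log2 fold was −0.16 ± 0.11 (SE). Hsp90b1 (GRP94) differed by −0.04 ± 0.13 and Calr, the calcium-binding lectin chaperone, by −0.08 ± 0.10. Pdia4 differed by −0.08 ± 0.12. Dnajb9 (ERdj4), a BiP co-chaperone induced through XBP1, read 9.91, 9.93 and 9.67 with TCDD, against 10.01, 10.07 and 9.99 in controls. Its groups did not overlap, by 0.07, but the fold of −0.18 ± 0.15 lay close to its standard error.

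The transcription factors had folds close to 0. Xbp1 read 12.37, 12.30 and 12.33 in TCDD pituitaries, against 12.26, 12.37 and 12.40 in control pituitaries, a log2 fold of −0.01 ± 0.09 (SE). Where its probe lies relative to the intron that IRE1 removes was not looked up, so spliced and unspliced Xbp1 mRNA are not told apart here. Ddit3, the pro-apoptotic factor CHOP, differed by −0.02 ± 0.11, with 9.67, 9.79 and 9.69 on TCDD arrays and 9.69, 9.60 and 9.94 on control arrays. Atf4, which is regulated mainly through translation, differed by −0.04 ± 0.11. The 95% interval of the difference reached from −0.22 to 0.19 for Xbp1, from −0.26 to 0.22 for Ddit3 and from −0.28 to 0.21 for Atf4.

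By the limma fit over all 13018 tested probes, with Benjamini-Hochberg adjustment and a threshold of 0.05, 2 of the 10 genes passed in the pituitary, both lower. Over all tested probes 0.668% passed in either direction and 0.284% as lower. All 10 folds were negative, as were 51.3% of all folds, and the median fold was −0.08 for the 10 genes and −0.01 for all probes. The 3 genes with groups apart (Sdf2l1, Manf and Dnajb9) were all lower with TCDD, where 10.8% of all probes had TCDD arrays wholly below the controls. Since this contrast was known when the genes were put together, nothing is read from these shares. Sdf2l1 no longer passed without pituitary control replicate 1 (log2 fold −0.65), control replicate 2 (−0.69) or TCDD replicate 1 (−0.65), and Manf no longer passed without any 1 of pituitary control replicates 1, 2 and 3 or TCDD replicates 1 and 5 (−0.55 to −0.49). Without TCDD replicate 5, the array that stood apart, the folds were −0.61 ± 0.11 for Sdf2l1 and −0.50 ± 0.11 for Manf (SE). In the authors' own processed values Sdf2l1 differed by −0.27 ± 0.03, a smaller fold on a scale with an unknown transform, and still passed. Fitting the pituitary arrays alone left neither gene past the threshold, with folds of −0.67 for Sdf2l1 and −0.47 for Manf, and scaling the arrays by their medians ended the call of Manf (−0.45). A block for replicate number in the fit also ended both calls.

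In the hypothalamus none of the 10 genes changed with TCDD by the same test, at a background of 0.0230% of all probes, and 2 of them (Sdf2l1 and Dnajb9) had an unadjusted p under 0.05, as did 10.9% of all probes. Sdf2l1 read 6.89, 6.77 and 6.97 in TCDD hypothalami (replicates 1, 3 and 4), against 6.56, 6.74 and 6.56 in control hypothalami (replicates 1, 3 and 5). The groups were apart by only 0.03, and the log2 fold of 0.26 ± 0.11 (SE) did not pass (adjusted p = 0.409 by limma). In raw intensity units the order was not the same: Sdf2l1 read 172.8, 145 and 142.9 with TCDD and 153.9, 155.7 and 169.2 in controls, while the arrays' median signals were 107.3, 93.8 and 92.5 with TCDD and 112.1, 103 and 120.8 in controls. The positive hypothalamic fold of Sdf2l1 was thus not seen in the unscaled signals. It was positive in all 22 settings of the processing, at 0.05 to 0.32, and passed in none.

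Manf stood at 10.62, 10.55 and 10.54 in TCDD hypothalami, against 10.69, 10.54 and 10.49 in control hypothalami, a log2 fold of 0.00 with a 95% interval from −0.21 to 0.20. Dnajb9 had the widest negative fold in this tissue, −0.40 ± 0.15 (SE), with 8.99, 8.65 and 8.63 on TCDD arrays and 9.33, 9.35 and 8.78 on control arrays. Its groups overlapped through control replicate 5, and it did not pass (limma adjusted p = 0.375). Hspa5 differed by −0.20 ± 0.11 (adjusted p = 0.552) and Calr by −0.11 ± 0.10 (adjusted p = 0.721, limma). The remaining 5 genes, Hsp90b1, Pdia4, Xbp1, Ddit3 and Atf4, had folds between 0.00 and 0.09. The median over the 10 genes was 0.01. Sdf2l1 alone had groups apart, where 13.9% of all probes did.

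**Figure D3:**
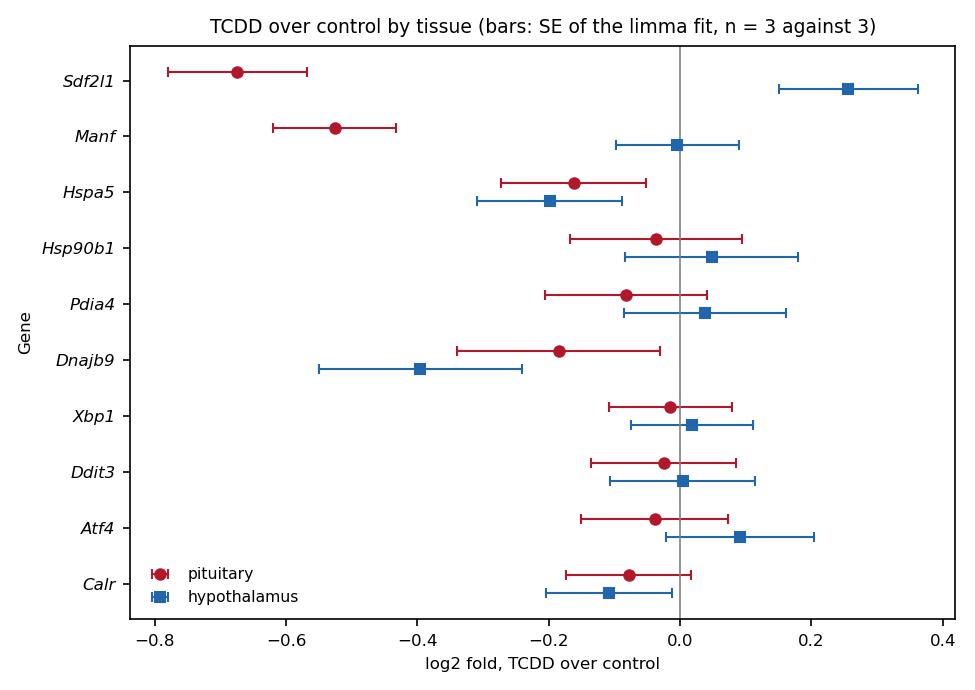
Log2 fold of TCDD over control with its standard error from the limma fit (3 arrays against 3), in pituitary (red circles) and hypothalamus (blue squares). Sdf2l1 lies at −0.67 in pituitary and 0.26 in hypothalamus and Manf at −0.53 and 0.00, while the other 8 genes lie between −0.18 and −0.01 in pituitary.

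The effect of TCDD on Sdf2l1 differed between the tissues by −0.93 ± 0.15 log2 units (pituitary minus hypothalamus, SE, 95% interval −1.26 to −0.61), and it was the 1 gene of the 10 that passed the test of that difference, which 0.200% of all probes passed in either direction and 0.0768% as lower. That difference holds the pituitary contrast and is given as a description. For Manf the difference was −0.52 ± 0.13 and did not pass, and for the other 8 genes it lay between −0.13 and 0.21. The pass of Sdf2l1 was lost without any 1 of 10 arrays, with differences from −0.99 to −0.86, and kept without hypothalamus TCDD replicate 3 (−0.99) or pituitary TCDD replicate 2 (−1.02). It was also lost with an intensity trend in the fit (−0.93) and with a block for replicate number. Scaling the arrays by their medians ended it too (−0.81). There the median difference over all probes was 0.11, so that Sdf2l1 lay about as far from that median as before.

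The genes differed between the tissues in another way, pituitary against hypothalamus, and here the control and the TCDD arrays give separate sets of values. In control fetuses 8 of the 10 genes were higher in the pituitary and 0 lower, where 33.7% of all probes passed as higher and 69.5% in either direction. Their median log2 difference was 0.79, against −0.05 for all probes. Hspa5 read 14.11, 14.13 and 14.28 in control pituitaries, against 12.86, 13.20 and 13.06 in control hypothalami, and was higher by 1.14 ± 0.11 (SE, limma adjusted p = 1.27e-06). Pdia4 read 10.72, 10.67 and 10.80 in control pituitaries, against 9.51, 9.74 and 9.37 in control hypothalami, and was higher by 1.19 ± 0.12 (adjusted p = 2.33e-06, limma). All pituitary arrays lay above all hypothalamic arrays, by 0.91 log2 units for Hspa5 and 0.93 for Pdia4.

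Dnajb9 was higher in control pituitary by 0.87 ± 0.15 (limma adjusted p = 2.58e-04) and Hsp90b1 by 0.71 ± 0.13 (adjusted p = 3.55e-04). Hsp90b1 read 12.73, 12.78 and 12.90 in control pituitaries, against 11.90, 12.34 and 12.04 in control hypothalami. Calr and Atf4 passed with small differences of 0.26 ± 0.10 (adjusted p = 0.0273) and 0.28 ± 0.11 (adjusted p = 0.0436, limma), and their groups were apart by 0.01 and 0.07. Leaving out an array ended these calls: Atf4 no longer passed without hypothalamus control replicate 3 or 5, pituitary control replicate 1 or 2, or pituitary TCDD replicate 2 (0.23 to 0.28, adjusted p 0.0540 to 0.136), and Calr without hypothalamus control replicate 1 or 5 or pituitary control replicate 2 or 3 (0.20 to 0.26, adjusted p 0.0635 to 0.0995, limma). Median scaling also ended both calls, at 0.18 for Atf4 and 0.12 for Calr, and array weights ended that of Calr (0.21). A block for replicate number in the fit ended both as well. Xbp1 (−0.04 ± 0.09, adjusted p = 0.732) and Ddit3 (−0.06 ± 0.11, adjusted p = 0.632) did not pass, with 95% intervals from −0.24 to 0.16 and from −0.30 to 0.18.

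Sdf2l1 and Manf were higher in control pituitary by 1.13 ± 0.11 and 0.96 ± 0.09 (SE). These values rest on the control pituitaries that also entered the contrast known when the genes were put together, so they stand as a description. On the TCDD arrays the pituitary difference was 0.20 ± 0.11 for Sdf2l1, with 7.03, 7.27 and 6.94 in pituitary against 6.89, 6.77 and 6.97 in hypothalamus, and the tissues overlapped. For Manf it was 0.44 ± 0.09 on the TCDD arrays, and the tissues stayed apart. Across the 4 groups Sdf2l1 thus ran, from high to low, control pituitary, TCDD pituitary, TCDD hypothalamus and control hypothalamus, with TCDD pituitary and TCDD hypothalamus overlapping. The difference between these 2 groups did not pass in the main processing but did in 3 alternatives, at 0.50 with median scaling, 0.27 with array weights and 0.15 in the authors' processed values. Median scaling also moved the median tissue difference of all probes on TCDD arrays to 0.06, from −0.05. Manf ran control pituitary, TCDD pituitary and then both hypothalamic groups, which were not separated.

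On the TCDD arrays 6 of the 10 genes were higher in the pituitary and 0 lower, where 33.4% of all probes passed as higher, 36.8% as lower and 70.2% in either direction, and the median difference was 0.36. Hspa5 differed by 1.17 ± 0.11 (adjusted p = 9.99e-07), Dnajb9 by 1.08 ± 0.15 (adjusted p = 4.18e-05) and Pdia4 by 1.07 ± 0.12 (adjusted p = 6.26e-06, limma). Hspa5 read 13.96, 14.14 and 13.93 in TCDD pituitaries, against 12.73, 12.88 and 12.91 in TCDD hypothalami. Hsp90b1 differed by 0.63 ± 0.13 (adjusted p = 9.28e-04) and Calr by 0.29 ± 0.10 (adjusted p = 0.0159, limma), the last no longer passing under median scaling (0.24, adjusted p = 0.0696). Hspa5, Hsp90b1, Pdia4 and Dnajb9 therefore passed as higher in the pituitary on control and on TCDD arrays, and did so under all 20 alternatives tried. Xbp1 and Ddit3 passed on neither set under the main processing, at −0.07 ± 0.09 and −0.09 ± 0.11 on the TCDD arrays, but Ddit3 was of opposite sign, at 0.22 on control and 0.20 on TCDD arrays, and passed, in the authors' processed values, whose tissues were normalized separately.

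**Figure D4:**
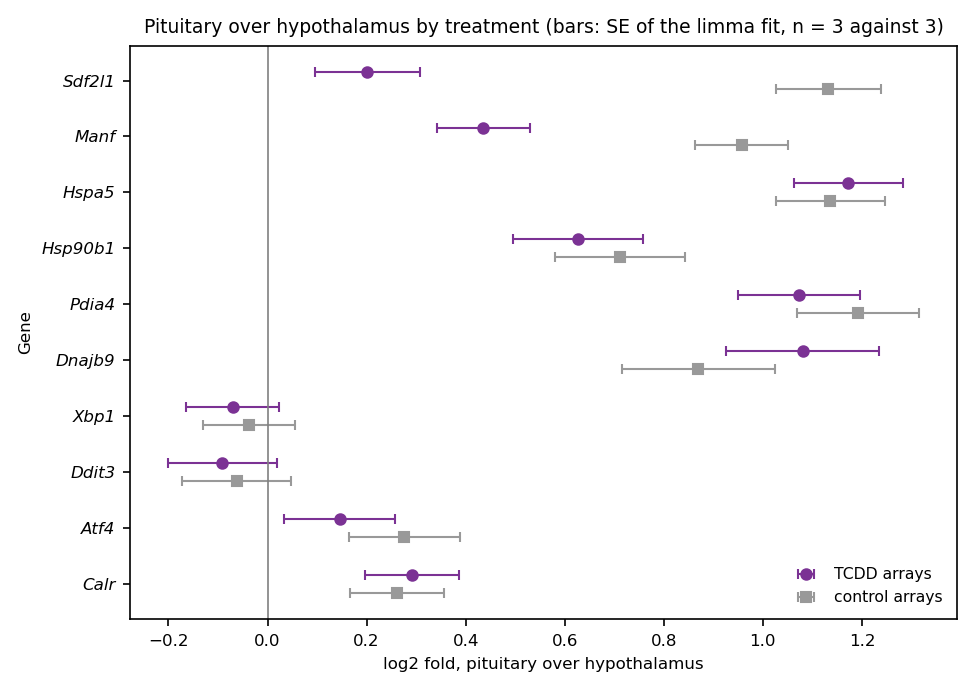
Log2 fold of pituitary over hypothalamus with its standard error from the limma fit (3 arrays against 3), on TCDD arrays (purple circles) and control arrays (grey squares). Hspa5, Hsp90b1, Pdia4 and Dnajb9 lie between 0.63 and 1.19 on both sets, Xbp1 and Ddit3 near 0, and Sdf2l1 lies at 0.20 on TCDD arrays and 1.13 on control arrays.

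The wider ER machinery and stress response, and beside them heat shock genes of the cytosol and mitochondria, were described by 6 lists that hold none of the 10 genes. None of their 82 tested genes passed with TCDD in either tissue by the limma test over all probes, while 13 in pituitary and 7 in hypothalamus had an unadjusted p under 0.05, against 11.5% and 10.9% of all probes. Of these, 1 in pituitary and 2 in hypothalamus were among the 11 heat shock genes. Of 22 tested genes among other ER chaperones and folding enzymes, 15 had a negative fold in the pituitary, with a median of −0.12, and none passed in either direction. Those of smallest p were Dnajc3 (p58IPK), a BiP co-chaperone, at −0.39 ± 0.10 (SE, adjusted p = 0.142) and Dnajb11 (ERdj3), the partner of Sdf2l1, at −0.36 ± 0.10 (adjusted p = 0.159, limma). Creld2, a secreted ER stress gene, stood at −0.39 ± 0.11 (adjusted p = 0.198). Of 14 tested genes of ER translocation and signal peptidase, 13 had a negative fold, with a median of −0.13. Sec61b, a subunit of the translocation channel, stood at −0.38 ± 0.09 (adjusted p = 0.0792) and Ssr4, a translocon-associated protein, at −0.47 ± 0.11 (adjusted p = 0.107, limma).

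Among 11 tested genes of ER-associated degradation, which returns misfolded proteins to the cytosol, 8 had a negative fold in the pituitary, with a median of −0.14. Edem2 stood at −0.32 ± 0.13 (limma adjusted p = 0.349) and Derl3 at −0.56 ± 0.23 (adjusted p = 0.378). Among 9 tested stress sensors 8 were negative, with a median of −0.10. The 16 tested targets of the PERK, ATF4 and CHOP arm did not share that sign: 7 were negative and the median was 0.04, with Atf3 at 0.39 ± 0.14 (adjusted p = 0.305) and Asns, asparagine synthetase, at 0.29 ± 0.12 (adjusted p = 0.378, limma). Of 11 tested heat shock genes of the cytosol and mitochondria 3 were negative, with a median of 0.05. Over all probes 51.3% of folds were negative and the median was −0.01. In the hypothalamus the medians of these lists were 0.00 for chaperones, −0.07 for translocation, 0.03 for degradation, 0.13 for sensors, 0.07 for PERK targets and 0.03 for heat shock genes.

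**Figure D5:**
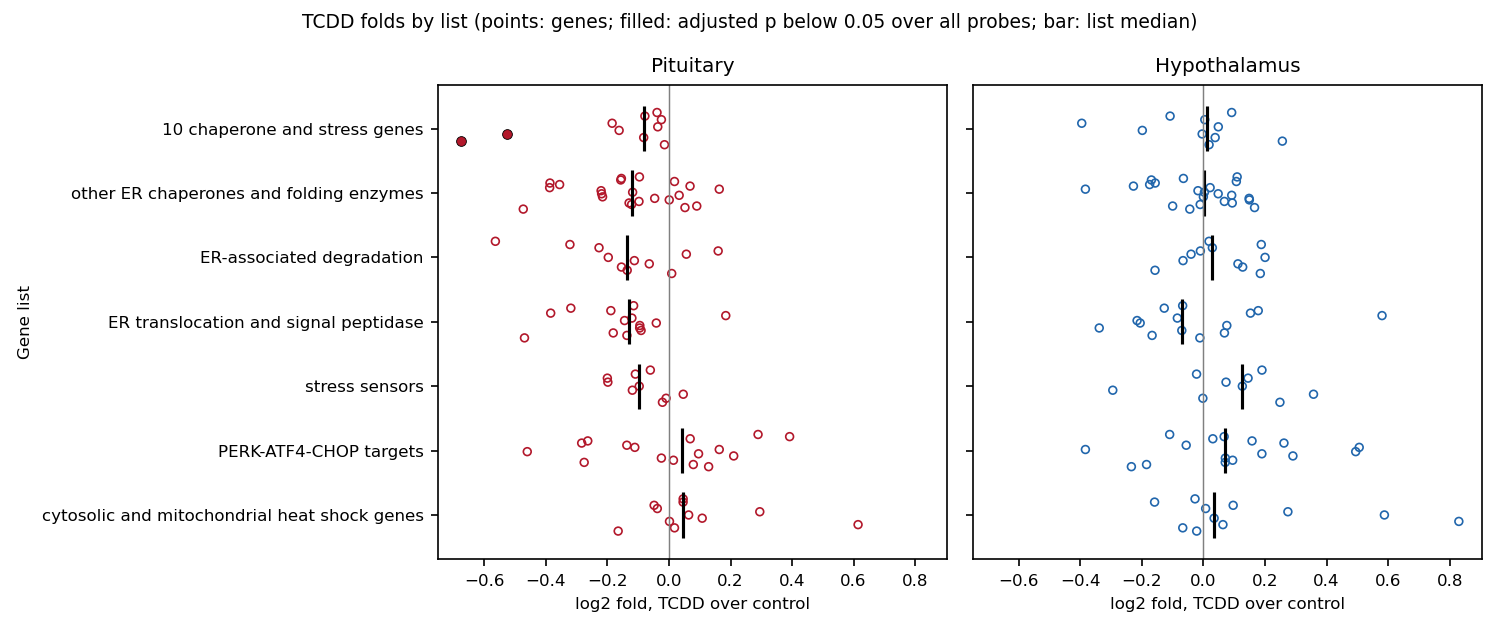
Log2 fold of TCDD over control for each tested gene of the 10 chaperone and stress genes and of 6 further lists, in pituitary and hypothalamus, with list medians as bars and genes with an adjusted p below 0.05 filled. Sdf2l1 and Manf are the only filled points, and list medians lie between −0.14 and 0.05 in pituitary and between −0.07 and 0.13 in hypothalamus.

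Between the tissues of control fetuses, more ER genes passed as higher in the pituitary than as lower. Of 22 other chaperones and folding enzymes 17 were higher in the pituitary and 2 lower, with Dnajc3 at 1.89 ± 0.10 (SE, limma adjusted p = 7.80e-09), Erp44, which retains client proteins in the early secretory pathway, at 1.61 ± 0.10 (adjusted p = 2.90e-08), and Canx, the membrane-bound relative of calreticulin, at −1.05 ± 0.13 (adjusted p = 1.11e-05). Sdf2, the paralog of Sdf2l1, was higher by 0.61 ± 0.14 (adjusted p = 0.00196, limma). Of 14 translocation genes 10 were higher and 2 lower, with Sec61b at 1.38 ± 0.09, and of 11 degradation genes 8 were higher and 2 lower. Of 9 sensors 6 were higher and 1 lower. Creb3l1 (OASIS), an ER-membrane transcription factor related to ATF6, was higher by 4.80 ± 0.25 (limma adjusted p = 6.14e-09) and Mbtps1, the protease that cleaves ATF6, by 1.25 ± 0.12 (adjusted p = 1.02e-06). Of 16 PERK targets 8 were higher and 3 lower, and of 11 cytosolic and mitochondrial heat shock genes 3 were higher and 3 lower. The shares are to be set beside 33.7% of all probes higher and 35.9% lower. Markers of tissues other than hormone cells were also higher in control pituitary. Of 8 tested bone and cartilage markers 7 were higher and 0 lower (median 2.70), and of 4 blood markers 3 were higher and 0 lower. Col1a1, a collagen gene, averaged 13.55 in control pituitary and 6.70 in control hypothalamus. The part of such tissue in the differences of these lists and of the 10 genes was not tested.

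On the TCDD arrays the corresponding counts, higher and lower in the pituitary, were 15 and 2 of 22 chaperones, 10 and 2 of 14 translocation genes, 5 and 2 of 11 degradation genes, 4 and 1 of 9 sensors, 7 and 2 of 16 PERK targets, and 3 and 5 of 11 heat shock genes. Among the lists, the full ERSE was found before 4 of 25 chaperones with a promoter sequence (Canx, Creld2, Dnajc3 and Ero1b) and before 1 of 14 degradation genes (Derl3), and before none of the other 4 lists. Beyond the 10 genes, 10 genes with the full ERSE were tested, and 0 of them passed in either TCDD comparison by limma, with 3 in pituitary (Creld2, Derl3 and Dnajc3) and 0 in hypothalamus at an unadjusted p under 0.05. Of these 10 genes, 4 were higher and 5 lower in control pituitary than in control hypothalamus, where 33.7% of all probes were higher and 35.9% lower. Of the 4 chaperone and stress genes with the element, Hspa5, Hsp90b1 and Calr were higher there and Xbp1 did not pass.

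Markers of pituitary and other cell types also moved in the exposed pituitary beside Sdf2l1 and Manf, and their part in the result was not tested. Of 10 tested anterior pituitary markers 4 were lower with TCDD (Fshb, Lhb, Gnrhr and Ghrhr), and the summed raw signal of the list ran from 68260.9 to 82180.4 intensity units on TCDD arrays and from 84650.5 to 89518.8 on control arrays. Fshb, the β-subunit of follicle-stimulating hormone, was detected on 2 of 3 TCDD arrays and on all 3 control arrays. Of 9 tested skeletal muscle markers 4 were lower (summed signal 1331.2 to 1804 with TCDD and 1781.7 to 2850.1 in controls), and of 7 tested mast cell markers 2 were lower (1241.8 to 1426.8 with TCDD and 1612.5 to 3119.5 in controls). The mast cell protease Mcpt10 was detected on 0 of 3 TCDD arrays and 3 of 3 control arrays, and Ms4a2, the mast cells' IgE receptor β-chain, on no pituitary array. Of 8 tested bone and cartilage markers none passed in either direction (19989.8 to 23035.8 with TCDD and 20435.4 to 28772.4 in controls), nor did any of 11 neuron markers (9509.1 to 37783.8 with TCDD, the highest on replicate 5, and 10594.1 to 14520.2 in controls), 13 hypothalamic markers, 2 plasma and B cell markers or 4 blood markers. At an unadjusted p under 0.05 were 8 of the skeletal muscle markers, the 4 that passed among them. So were 3 of the bone, 3 of the neuron and 5 of the hypothalamic markers, and 11.5% of all probes. By adjusted p 0.284% of all probes passed as lower and 0.384% as higher in pituitary. Among 7 secretory granule genes Pcsk2, a prohormone convertase, was higher, and among 4 endothelial markers Vwf, von Willebrand factor, was higher.

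Patterns over the 12 arrays were compared among tested probes with a symbol, the 10 genes left out. Those most like Sdf2l1, by the root mean square difference of centred log2 levels, were Yipf2 (0.127), Inmt (0.137), Lst1 (0.142) and Hs2st1 (0.149). The median over all tested probes was 0.548. Inmt and Lst1 were dim, with group means from 5.13 to 6.31. Yipf2 averaged 7.53 in TCDD pituitary and 8.03 in control pituitary, and 7.36 in TCDD hypothalamus and 7.08 in control hypothalamus. Its groups stood in the order of those of Sdf2l1. Since Yipf2 was picked for likeness to Sdf2l1 on these same arrays, that order is a description and supports nothing. For Hspa5 the nearest were Lmf2 (0.0982), Arhgef1 (0.109), Aif1 (0.110) and Sass6 (0.116), against a median of 0.673. Lmf2, an ER membrane protein of lipase maturation, averaged 10.31 in TCDD pituitary and 10.32 in control pituitary, and 9.08 in TCDD hypothalamus and 9.18 in control hypothalamus.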

How the data were processed

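Per the file headers, the authors deposited 1 non-normalized bead intensity and 1 detection p-value per probe and array. A second table the authors deposited holds processed values that resemble log2, with medians of 7.91 (hypothalamus) and 7.89 (pituitary). From the values its tissues were normalized separately and no centring of genes was seen; its exact transform is unknown, and it served as an alternative. The scanner software and array build are not given in the sources used here.

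Intensities were background-corrected and quantile-normalized over 12 arrays with neqc (offset 16, which pulls folds of dim probes towards 0) in limma 3.58.1, R 4.3.3. A probe was tested where its detection p lay under 0.05 on 3 or more arrays, which held for 13018 of 22523. A single model of 4 group means without covariates was fitted, with 8 residual and 4.19 prior degrees of freedom; each moderated test was two-sided, and Benjamini-Hochberg adjustment ran over all tested probes at a threshold of 0.05. The fit was checked on simulated data. The number of arrays limits the precision.

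Symbols came from the platform's annotation, and a gene of a list was represented by its brightest probe. The members, lists and markers were chosen with earlier results of these data known. The text names all 10 members, up to a few genes of smallest p per list, and for Sdf2l1 and Hspa5 the 4 most alike probes with a symbol. Promoters are RefSeq's (GRCr8), without the 50 bases after the start. Alternatives were median scaling, uncorrected background, the authors' processed table, other probe filters, an intensity trend, array weights, single-tissue fits, a replicate block and leaving out each array.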

Additional observations from a re-analysis of the deposited data

Results flagged for a closer look

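Sdf2l1 was picked out because its TCDD effect differed between the tissues by the test of the difference itself: −0.93 ± 0.15 log2 units, pituitary minus hypothalamus (SE, limma). The pituitary fold was −0.67 and the hypothalamic fold 0.26. The second was not seen in raw intensities, which are not scaled between arrays. It was positive in all 22 settings of the processing (0.05 to 0.32) and passed in none. The pituitary contrast was known when the genes were put together, so this is a description. None of the other 9 genes was picked out.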

How the results depend on the processing

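The number of the 10 genes that passed in pituitary was 2 in the main processing, 1 with median scaling, 0 with each tissue fitted alone and 0 with a replicate block, and ranged from 0 to 2 when 1 array was left out. For the difference of TCDD effects it was 1, and 0 with median scaling, 0 with an intensity trend, 0 with a replicate block, and 0 to 1 when 1 array was left out. In hypothalamus it was 0 under all 21 alternatives. Same-numbered arrays of a tissue correlated at −0.07 to 0.11 in their deviations from group means. With 2 pairs a tissue, this cannot tell whether the numbers pair the samples, and the labels do not say. Same-numbered arrays of the 2 tissues within a treatment correlated at 0.02 (control 1), 0.02 (control 3) and −0.02 (TCDD 1), again too few to tell. Under the block the folds in pituitary were −0.63 for Sdf2l1 and −0.51 for Manf, the difference of effects was −0.80 for Sdf2l1, and the tissue differences on control arrays were 0.30 for Atf4 and 0.24 for Calr; none of these 5 passed, and the block ended no other call of the 10 genes. Higher in control pituitary than in control hypothalamus were 8 genes, and 6 to 9 over the alternatives; on TCDD arrays 6, and 6 to 9. The fold of Sdf2l1 in pituitary ran from −0.77 to −0.27 and passed in 17 of 22 settings; that of Manf ran from −0.60 to −0.45 and passed in 14 of 22. Reversed in sign were the tissue differences of Ddit3 in the authors' values, at 0.22 on control and 0.20 on TCDD arrays; the cause was not tested. On TCDD arrays the tissue difference of Atf4 passed at 0.35 in the authors' values. Of 50 folds (10 genes, 5 comparisons), 17 passed, none of which changed sign and 6 of which lost the call in at least 1 alternative; of 33 that did not pass, 22 changed sign in at least 1. Median scaling moved the median fold of all probes to 0.11 for the difference of effects. Sdf2l1, at 142.9 to 330.5 raw intensity units, has the highest detection p of the 10 genes (0.00485), and the offset pulls its folds towards 0.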
